A study of Mus musculus with 16 samples.

Results

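The TREM2 signalling genes are 8 genes taken by name: Trem2, its adaptors Tyrobp and Hcst, and Syk, Plcg2, Inpp5d, Pik3cg and Vav1, which encode signalling proteins below the receptor. The table listed 53850 genes, of which 19594 passed a filter on low values, and each of the 8 passed. RNA had been sequenced from microglia sorted from the brain cortex of young C57BL/6J mice, and all groups shared that strain. The 4 groups were males fed chow with PLX3397, males fed control chow, females fed chow with PLX3397 and females fed control chow. PLX3397, an inhibitor of the kinase of the CSF1 receptor, on which microglia depend for survival, was given for 1 week, and the series asks how the response differs between the sexes. Each group had 4 libraries, made from 500 pg of RNA by SMARTer amplification and Nextera XT. The libraries came from the cells still present after feeding. Neither the sorting gate nor the number of animals behind a group is given in the labels, and p-values therefore measure the spread between libraries, which may be technical.

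TREM2 is a surface receptor of microglia and related macrophages that binds lipids, lipoproteins and cell debris, and in the brain it is best known from rare variants that raise the risk of Alzheimer's disease. It has no signalling tail of its own. It pairs in the membrane with DAP12, the product of Tyrobp, whose tyrosines are phosphorylated by Src family kinases and then bind the kinase SYK, or with DAP10, the product of Hcst, which recruits PI3-kinase. SYK passes the signal to phospholipase C gamma, PI3-kinase and the VAV exchange factors, and SHIP1, the product of Inpp5d, removes a phosphate from the lipid that PI3-kinase makes.

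Values are normalised read counts as deposited. Library sums lay between 32600000 and 44200000, and steps among the low values put the reads of a library at roughly 22400000 to 78000000. Changes are log2 fold changes ± SE of log2(value + 1), PLX3397 over control chow within a sex, and genes were called at an adjusted p under 0.05 in limma with Benjamini-Hochberg adjustment over all genes tested. A pair of libraries stood apart. In male control replicate 4 Xist, which females express from the inactive X chromosome, stood at 515.7, against 14.7 to 31.4 in the other male controls. In male PLX3397 replicate 3 the neutrophil gene S100a8 stood at 14419, against 2020 to 3184 in the other males on PLX3397. The 10 microglia markers, chosen to check the labelled cell type, were all detected in every group. They summed to 1058150 to 1502360 in males on PLX3397 against 2339030 to 2523340 in male controls, and to 1692430 to 1922730 in females on PLX3397 against 2229220 to 2735180 in female controls. In such bulk samples fewer cells of a type and less RNA per cell cannot be told apart. The 11 neutrophil markers summed to 10696 to 75098 in males on PLX3397 against 530.6 to 3668 in male controls, and to 1046 to 3485 in females on PLX3397 against 202.6 to 271.4 in female controls, where 7 of them were at 0. Markers of other cell types also differed with PLX3397 without overlap. The 9 border macrophage markers summed to 743 to 1137 in males on PLX3397 against 2099 to 3350.1 in male controls, and to 1049.9 to 1676 in females on PLX3397 against 1834 to 3831 in female controls. The 7 B cell markers summed to 16729 to 17683 in males on PLX3397 against 23485 to 29252 in male controls, and to 18652 to 21804 in females on PLX3397 against 25586 to 30952 in female controls. Sums were also lower in both sexes on PLX3397 for the 5 endothelial markers and for the 10 T and NK cell markers, of which Cd3e was at 0 in every library. Sums of the 5 astrocyte markers were higher, at 435 to 1039.9 in males on PLX3397 against 197 to 249 in male controls, and 431 to 905 in females on PLX3397 against 155 to 308 in female controls. Sums of oligodendrocyte and of monocyte markers were higher without overlap in males alone, and sums of neuron markers overlapped in both sexes. Gene by gene, limma called 0 of 5 monocyte markers and 1 of 4 oligodendrocyte markers tested in males. In males the direction of change was mixed within both of these lists. In each sex 1 of 3 endothelial markers tested was called lower (Pecam1). So were 1 of 2 T and NK cell markers (Klrd1) and 1 of 4 B cell markers (Ighm). The endothelial markers Flt1 and Cdh5 were not called, at 1.15 and 0.78 in males and -0.37 each in females. Of 5 astrocyte markers 1 was called higher in males and 2 in females. Of 9 border macrophage markers 6 were called lower in males and 4 in females. The part of these marker changes in the results for the members was not tested.

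Promoters matched 7 of the 8 members, with Tyrobp unmatched (RefSeq, build GRCm38.p6, from 250 bases before the start of a gene to 50 after it). They were searched on both strands for GAGGAA, the core bound by PU.1, the transcription factor that defines the myeloid lineage, and for CACGTG, an E-box bound by factors of lysosomal genes among others. No match of one overlapped a match of the other. Positions count from the annotated start, as 1, to the first printed base of a match. The 4 promoters shown belong to the receptor and to the 3 signalling genes that fell in at least 1 sex and held GAGGAA. Capitals mark each match, which reads TTCCTC where it lies on the other strand.
Trem2, chr17:48346151-48346450, plus strand: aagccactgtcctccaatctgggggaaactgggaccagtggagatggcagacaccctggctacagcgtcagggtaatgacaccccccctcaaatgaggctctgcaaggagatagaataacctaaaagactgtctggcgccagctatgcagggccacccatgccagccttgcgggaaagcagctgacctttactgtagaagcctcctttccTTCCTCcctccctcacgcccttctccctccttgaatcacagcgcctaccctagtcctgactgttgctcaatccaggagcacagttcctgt
Vav1, chr17:57278850-57279149, plus strand: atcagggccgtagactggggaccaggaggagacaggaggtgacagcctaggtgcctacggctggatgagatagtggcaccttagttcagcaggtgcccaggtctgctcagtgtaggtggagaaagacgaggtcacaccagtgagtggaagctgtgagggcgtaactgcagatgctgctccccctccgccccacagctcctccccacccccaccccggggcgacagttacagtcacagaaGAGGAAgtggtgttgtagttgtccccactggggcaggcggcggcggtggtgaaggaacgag
Pik3cg, chr12:32208610-32208909, minus strand, first listed start: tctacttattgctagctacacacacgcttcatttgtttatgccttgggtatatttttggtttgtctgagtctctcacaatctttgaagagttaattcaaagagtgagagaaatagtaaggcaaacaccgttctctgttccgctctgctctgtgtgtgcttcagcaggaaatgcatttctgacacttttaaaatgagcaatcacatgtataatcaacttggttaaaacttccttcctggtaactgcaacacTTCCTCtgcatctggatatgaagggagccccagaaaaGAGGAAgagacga
Inpp5d, chr1:87620062-87620361, plus strand: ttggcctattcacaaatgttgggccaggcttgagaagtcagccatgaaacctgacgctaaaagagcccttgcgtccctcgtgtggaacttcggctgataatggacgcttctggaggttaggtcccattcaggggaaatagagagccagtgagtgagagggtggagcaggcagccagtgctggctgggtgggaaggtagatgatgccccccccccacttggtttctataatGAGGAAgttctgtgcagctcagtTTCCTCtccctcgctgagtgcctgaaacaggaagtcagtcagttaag
Trem2 had 1 match, at position -40 from the start of the gene, and Vav1 had 1, at position -11. Pik3cg had 2, at positions 1 and 38, and Inpp5d had 2, at positions -20 and 4. The Hcst and Plcg2 windows held none, and of the 2 windows of Syk 1 held 1. CACGTG was found once, in Plcg2. Among 32851 promoters of the same length, 28.3% held GAGGAA and 7.15% held CACGTG. A match is a run of letters only, and binding was not measured here.

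**Figure D1:**
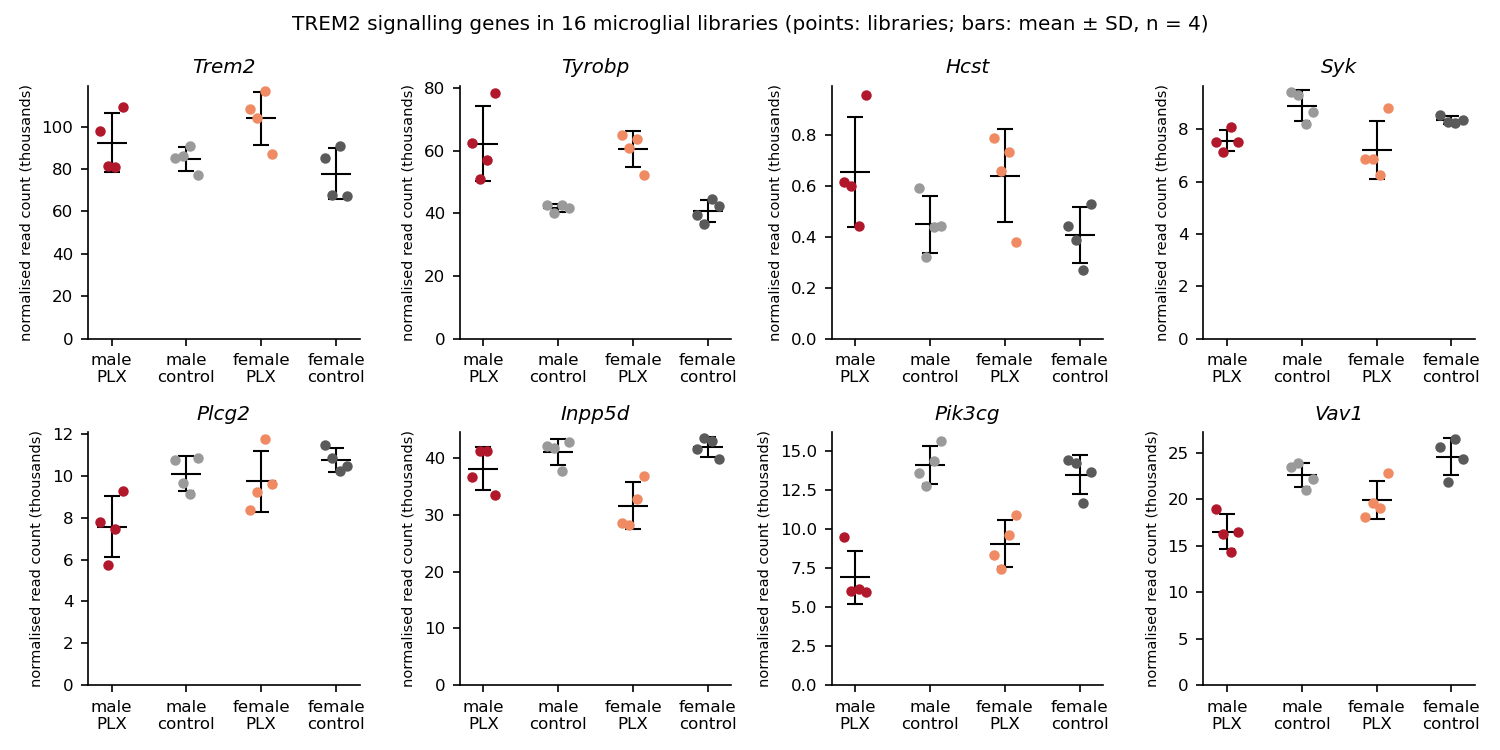
Normalised read counts of the 8 members in each of 16 libraries (points), with the mean and SD of each group (bars, n = 4); every vertical axis starts at 0. In both sexes Tyrobp lies higher and Pik3cg lower on PLX3397 than on control chow, with no overlap, while Trem2 overlaps between chows.

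Tyrobp, which encodes the DAP12 adaptor shared by many myeloid receptors, rose in both sexes. In males it read 62646, 50912, 57186 and 78671 on PLX3397, against 42647, 40148, 42650 and 41768 on control chow. In females it read 65029, 60822, 63962 and 52221 on PLX3397, against 39466, 36712, 44785 and 42288 on control chow. Every library on PLX3397 was above every control of its sex. The change was 0.56 ± 0.109 in males (limma adjusted p = 0.0025) and 0.57 ± 0.109 in females (limma adjusted p = 0.00428), about 1.47-fold and 1.48-fold. The call held in both sexes under all 27 alternatives tried.

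Trem2 read 98069, 81391, 81003 and 109384 in males on PLX3397, against 85192, 86031, 90766 and 77242 in male controls. These groups overlapped: replicates 1 and 4 on PLX3397 lay above all male controls, and the other two lay within the range of the controls. The change of 0.12 ± 0.119 did not pass (limma adjusted p = 0.618). In females Trem2 read 108269, 104302, 116684 and 86917 on PLX3397, against 85017, 67733, 90971 and 67328 on control chow. Here 3 of the 4 libraries on PLX3397 were above all controls, and replicate 4 lay among them. Trem2 rose in females by 0.42 ± 0.119, about 1.34-fold (limma adjusted p = 0.0482), close to the threshold. The female call held under 6 of 11 other settings and in 5 of the 16 fits that left out 1 library. The limma adjusted p was 0.113 with no filter, 0.083 in a fit to the female groups alone and 0.0629 with upper-quartile scaling. Without female PLX3397 replicates 1, 2 or 3 it was 0.117, 0.102 and 0.131, and without female control replicates 1, 2 or 4 it was 0.0535, 0.132 and 0.146. It was 0.0545 without male PLX3397 replicate 1, and 0.0633, 0.0629, 0.0571 and 0.054 without male control replicates 1, 2, 3 and 4. With quantile normalisation Trem2 was also called in males, at 0.39 (limma adjusted p = 0.000787). 

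The ratio of the receptor to its adaptor within a library does not depend on how the library was scaled by a single factor. Trem2 over Tyrobp averaged 1.49 ± 0.105 in males on PLX3397 and 2.03 ± 0.137 in male controls (SD, n = 4 each), with no overlap between the groups. It averaged 1.72 ± 0.0752 in females on PLX3397 and 1.91 ± 0.245 in female controls, where the groups overlapped. On the log2 scale the difference was -0.44 in males (two-sided exact permutation p = 0.0286, adjusted p = 0.171 over 12 ratio tests) and -0.14 in females (exact permutation p = 0.229, adjusted p = 0.457). Females on PLX3397 minus males on PLX3397 gave a log2 difference of 0.20 in the ratio (exact permutation p = 0.0286, adjusted p = 0.171). The smallest p that 4 against 4 allows is 0.0286, and none of the 12 tests passed the adjustment.

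Hcst encodes DAP10, the adaptor that carries a PI3-kinase binding motif. Males had 614, 601, 445 and 960 on PLX3397, against 594, 322, 440 and 443 on control chow. Females had 789, 661, 736 and 379 on PLX3397, against 445, 389, 268 and 530 on control chow. Groups overlapped in both sexes, with 3 libraries on PLX3397 above all controls in each. The changes of 0.52 ± 0.285 in males (limma adjusted p = 0.291) and 0.64 ± 0.285 in females (limma adjusted p = 0.257) did not pass. Hcst and Tyrobp lie end to end on opposite strands, with 126 bases between their annotated ends, and the sources used here do not say whether reads were counted by strand. Hcst stood at 1.04 ± 0.204% of Tyrobp in males on PLX3397 and 1.07 ± 0.244% in male controls, and at 1.04 ± 0.219% in females on PLX3397 and 1.01 ± 0.285% in female controls (SD, n = 4 each). The log2 ratio differed by -0.04 in males and 0.07 in females (exact permutation p = 0.886 and 0.714). Values of Hcst are uncertain, since its reads are few beside those of its neighbour.

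**Figure D2:**
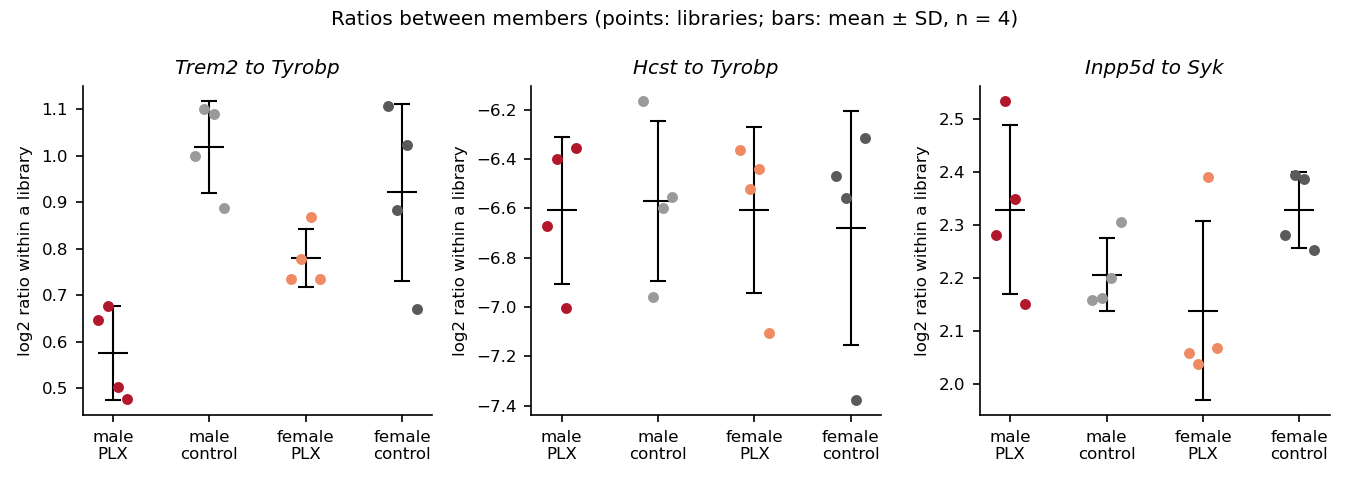
Log2 ratios of Trem2 to Tyrobp, Hcst to Tyrobp and Inpp5d to Syk within each library (points), with the mean and SD of each group (bars, n = 4). In males the Trem2 to Tyrobp ratios on PLX3397 all lie below those on control chow, and the Hcst to Tyrobp ratios overlap in every group.

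Syk encodes the tyrosine kinase that docks on phosphorylated DAP12. Male libraries read 7525, 7117, 8078 and 7527 on PLX3397, against 9432, 9317, 8194 and 8657 on control chow. All 4 male libraries on PLX3397 were below all male controls, but the change of -0.23 ± 0.0949 did not pass (limma adjusted p = 0.136). Female values were 6870, 6871, 6258 and 8804 on PLX3397, against 8547, 8287, 8240 and 8338 on control chow. Replicate 4 on PLX3397 was above every female control and the other 3 below, so that the change of -0.23 ± 0.0949 did not pass (limma adjusted p = 0.222). Without female PLX3397 replicate 4 Syk was called in females, at -0.33 (limma adjusted p = 0.0244).

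Plcg2 encodes the phospholipase that SYK activates, which splits a membrane lipid into second messengers for calcium release and protein kinase C. In males it read 7805, 5759, 7445 and 9286 on PLX3397, against 10756, 9679, 9112 and 10860 on control chow. Only replicate 4 on PLX3397 reached the range of the controls. Plcg2 fell in males by 0.43 ± 0.129 on the log2 scale, to 0.741 of the control level (limma adjusted p = 0.039). Female libraries read 8354, 9228, 11773 and 9623 on PLX3397, against 11494, 10852, 10209 and 10476 on control chow. The female groups overlapped and the change of -0.15 ± 0.129 did not pass (limma adjusted p = 0.625). The male call for Plcg2 held under 6 of 11 other settings and in 10 of 16 fits that left out 1 library. It ended with equal library totals (-0.27, limma adjusted p = 0.129) and quantile normalisation (-0.22, limma adjusted p = 0.267). It also ended with no filter (0.0698), in a fit to the male groups alone (0.0797) and without both libraries that stood apart (0.164). Without male PLX3397 replicates 1, 2 or 3 the limma adjusted p was 0.0555, 0.122 and 0.0803, and without male control replicates 1, 2 or 4 it was 0.104, 0.0663 and 0.0997.

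Inpp5d encodes SHIP1, the inositol phosphatase that acts against PI3-kinase and can bind DAP12. In females it read 28590, 28201, 32822 and 36899 on PLX3397, against 41530, 43539, 43065 and 39738 on control chow. Every female library on PLX3397 was below every female control. Inpp5d fell in females by 0.42 ± 0.0894 on the log2 scale, to 0.75 of the control level (limma adjusted p = 0.00964), and was called under all 27 alternatives. In males it read 36573, 41220, 41166 and 33441 on PLX3397, against 42095, 41683, 37628 and 42797 on control chow. The male groups overlapped, and the change of -0.11 ± 0.0894 did not pass (limma adjusted p = 0.501). Its sign turned under other scalings, to 0.05 with equal library totals and 0.11 with quantile normalisation. The ratio of Inpp5d to Syk, phosphatase to kinase, averaged 5.05 ± 0.565 in males on PLX3397 and 4.62 ± 0.225 in male controls, and 4.43 ± 0.547 in females on PLX3397 and 5.03 ± 0.25 in female controls (SD, n = 4 each). Neither difference passed (0.12, exact permutation p = 0.286 in males, and -0.19, exact permutation p = 0.114 in females).

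Pik3cg encodes the catalytic subunit of PI3-kinase gamma, a class best known for its activation by G-protein-coupled receptors such as those for chemokines. In males its change was the largest in size of the 8 members, and in females it was second to that of Hcst, which did not pass. Males had 9456, 6037, 6128 and 5956 on PLX3397, against 13597, 12762, 14375 and 15647 on control chow. In females it read 8308, 7415, 9623 and 10863 on PLX3397, against 14396, 14209, 11663 and 13629 on control chow. No library on PLX3397 reached a control of its sex. Pik3cg fell by 1.06 ± 0.147 on the log2 scale in males, to 0.481 of the control level (limma adjusted p = 0.000137), and by 0.58 ± 0.147 in females, to 0.667 (limma adjusted p = 0.0256). The male call held under all 27 alternatives, with limma adjusted p of at most 0.00324. The female call held under all 11 other settings and in 11 of the 16 fits that left out 1 library. The limma adjusted p for Pik3cg in females was 0.0773 and 0.0901 without female PLX3397 replicates 1 and 2, and 0.077, 0.0685 and 0.062 without female control replicates 1, 2 and 4.

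Vav1 encodes a guanine nucleotide exchange factor that switches on Rac GTPases and so the actin cytoskeleton in blood cells. In males it read 18910, 16263, 14319 and 16473 on PLX3397, against 23495, 23885, 20966 and 22133 on control chow. The male groups did not overlap, and Vav1 fell by 0.46 ± 0.0941 on the log2 scale, to 0.727 of the control level (limma adjusted p = 0.00355). Of the 27 alternatives only quantile normalisation ended the male call (-0.23, limma adjusted p = 0.0716). Females had 18074, 19643, 19062 and 22860 on PLX3397, against 25575, 21907, 26489 and 24375 on control chow. Replicate 4 on PLX3397 overlapped the female controls and the change of -0.31 ± 0.0941 did not pass (limma adjusted p = 0.0734). Vav1 was called in females with upper-quartile scaling (limma adjusted p = 0.0277), with equal library totals (0.025), without female PLX3397 replicate 4 (0.027) and without female control replicate 2 (0.0463).

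Across the 8 members, 4 were called in males, 1 higher (Tyrobp) and 3 lower (Plcg2, Pik3cg, Vav1). Of all genes tested in males 11.7% were called, 4.16% higher and 7.52% lower. In females 4 members were called, 2 higher (Trem2, Tyrobp) and 2 lower (Inpp5d, Pik3cg), beside 5.34% of all genes tested, 2.67% higher and 2.67% lower. The median change of the members was -0.17 in males and -0.19 in females, against 0.02 and -0.0032 over all genes tested. Without both libraries that stood apart, 3 members were called in males, Tyrobp (0.59), Pik3cg (-0.96) and Vav1 (-0.41), and 3 in females, with Trem2 at a limma adjusted p of 0.0545. Equal library totals moved the male median of all genes to 0.18, and 1 member was then called higher and 2 lower in males. With quantile normalisation 2 were called higher and 1 lower there. Groups did not overlap for Tyrobp, Syk, Pik3cg and Vav1 in males and for Tyrobp, Inpp5d and Pik3cg in females, 4 and 3 of the 8. Of all genes tested, 17.6% did not overlap in males and 10.4% in females. Female PLX3397 replicate 4 was the library of its group nearest to the control mean for 7 of the 8 members, all but Plcg2. Over all genes tested it was nearest for 29.9%, and the other females on PLX3397 for 22.4% to 24.8%.

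**Figure D3:**
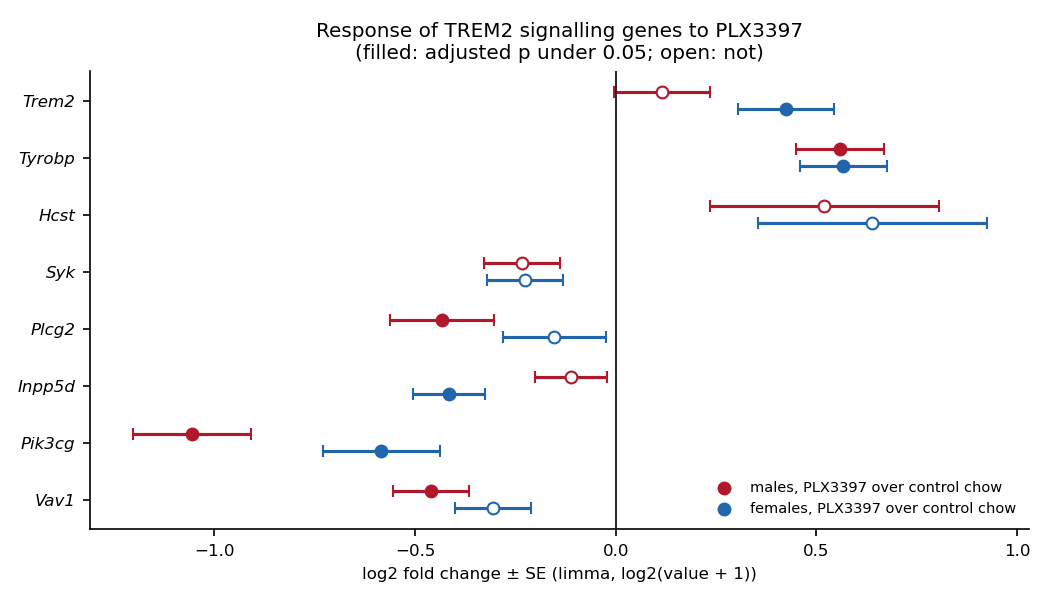
Log2 fold change of each member, PLX3397 over control chow, in males and in females; bars are ± SE from limma, and filled points have an adjusted p under 0.05. Tyrobp and Pik3cg are filled in both sexes, at 0.56 and 0.57 for Tyrobp and -1.06 and -0.58 for Pik3cg in males and females.

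Whether the response differed between the sexes was tested directly as the female response minus the male response. No member passed, and 0.0% of all genes did: limma called 0 of 19594, although 2010 genes (10.3%) had an unadjusted p under 0.05. Other settings called at most 2 genes and fits without 1 library 0 to 6, none of them a member. The largest difference in size among members was 0.47 ± 0.207 for Pik3cg (limma adjusted p = 0.443). Trem2 differed by 0.31 ± 0.168 (limma adjusted p = 0.551), which was -0.04 with quantile normalisation, and Inpp5d by -0.30 ± 0.126 (limma adjusted p = 0.415). The remaining members differed by 0.01 to 0.28, and those of Tyrobp, Syk, Hcst and Vav1 changed sign under some alternatives. The differences in calls between the sexes for Trem2, Plcg2, Inpp5d and Vav1 were therefore not shown to be differences in response.

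Females were also set against males on each chow. On PLX3397 5.43% of all genes were called and no member was, with Inpp5d nearest the threshold at -0.27 ± 0.0894 (limma adjusted p = 0.0888). Females minus males on PLX3397 gave 0.27 for Vav1, 0.37 for Plcg2 and 0.41 for Pik3cg, which did not pass (limma adjusted p = 0.102, 0.104 and 0.118). Members were called in this comparison only under other scalings or with a single library left out. Inpp5d was called with equal library totals (-0.47, limma adjusted p = 0.0387), with quantile normalisation (-0.51, 0.028), without male PLX3397 replicate 4 (-0.33, 0.0383) and without female PLX3397 replicate 4 (-0.35, 0.0359). Plcg2 was called without male PLX3397 replicate 4 (0.48, limma adjusted p = 0.0335), and Pik3cg and Vav1 without male PLX3397 replicate 1 (0.57, 0.0146 and 0.34, 0.0446). Among controls 0.0663% of all genes were called, and no member was, with limma adjusted p of at least 0.983 for each. Their differences on control chow lay between -0.15 (Hcst) and 0.12 (Vav1).

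Levels were compared between members per kb of the longest protein-coding transcript. Receptor and adaptor stood far above the enzymes. Tyrobp averaged 110557 ± 21078 normalised counts per kb in males on PLX3397 and 74120 ± 2090 in male controls, and 107284 ± 10295 in females on PLX3397 and 72363 ± 6192 in female controls. Trem2 averaged 84983 ± 12688 in males on PLX3397 and 77948 ± 5155 in male controls, and 95628 ± 11517 in females on PLX3397 and 71473 ± 11088 in female controls (SD, n = 4 in each group). The SD ranges of the pair overlapped in all 4 groups. Within a library their levels per kb are equal where Trem2 over Tyrobp equals the ratio of their lengths, 1088 to 564 bases. On PLX3397 Trem2 over Tyrobp was at most 1.6 in males and 1.82 in females, so Tyrobp lay above Trem2 in every library. On control chow it ran from 1.85 to 2.14 in males and from 1.59 to 2.15 in females. These ranges include equal levels, so the order in controls was not resolved. With all annotated exons merged, which for Trem2 come to 4946 bases in place of 1088, Tyrobp lay above Trem2 in every group. Inpp5d and Vav1 followed. Inpp5d averaged 7717 ± 768.4 per kb in males on PLX3397 and 8315 ± 471.5 in male controls, and 6406 ± 828.5 in females on PLX3397 and 8501 ± 347.6 in female controls. Vav1 averaged 5566 ± 635 per kb in males on PLX3397 and 7634 ± 450.2 in male controls, and 6719 ± 698.8 in females on PLX3397 and 8298 ± 670 in female controls. Apart from males on PLX3397, where Inpp5d lay above Vav1, their SD ranges overlapped. Plcg2, Pik3cg, Syk and Hcst came last, with group means from 923.2 (Hcst, female controls) to 2503 (Plcg2, female controls). Pik3cg had 1174 ± 291.1 per kb in males on PLX3397, the lowest of the 8 there by this length, and 2401 ± 208.9 in male controls, where it overlapped Plcg2 at 2350 ± 197.5.

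**Figure D4:**
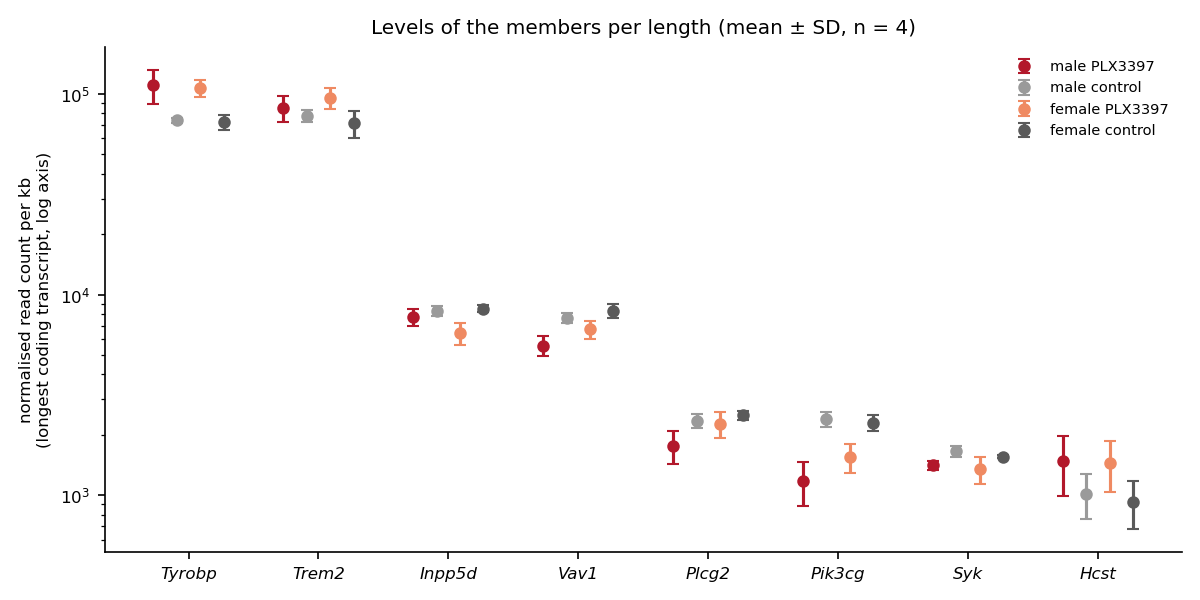
Mean normalised read count per kb of the longest coding transcript for each member in each group, on a log axis; bars are SD (n = 4). Tyrobp and Trem2 lie at 71473 to 110557, Inpp5d and Vav1 at 5566 to 8501, and the other 4 members at 923.2 to 2503.

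The genes whose profiles over the 16 libraries lay nearest to a member were sought among 11141 named genes with a mean of at least 50. Likeness was the root mean square difference of the centred log2 values. Nearest to Trem2 were Hexa (0.112), Ppt1 (0.115), Gnptg (0.116), Ctss (0.116) and Phb (0.117), while Trem2 itself varied by 0.224 around its mean. Of these genes, Hexa, Ppt1 and Ctss encode lysosomal enzymes, and Gnptg a subunit of the enzyme that tags such enzymes for the lysosome. Phb is of neither kind. Nearest to Tyrobp were Cox4i1 (0.0908), Rpl17 (0.0932), Gusb (0.117), Lamp1 (0.118) and Npc2 (0.118), with a spread of 0.316 for Tyrobp itself. Cox4i1 encodes a subunit of cytochrome oxidase and Rpl17 a ribosomal protein, and Gusb, Lamp1 and Npc2 encode lysosomal proteins. The libraries share group and scaling, so these distances are a description with no test.

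Around the members, 95 further genes of the pathway were followed in 8 lists, of which 90 were tested. In males on PLX3397 10 of them rose, 19 fell and 61 did not pass, so that 32.2% were called against 11.7% of all genes. Their median change was -0.13, against 0.02 over all genes tested. The 10 that rose include Trem3 and Pilrb1, which passed the filter only through libraries on PLX3397. The lists were also chosen with earlier results of these data known, so the share called is a description. Equal library totals turned the split to 16 higher and 13 lower, and quantile normalisation to 15 and 13, so the balance of directions depends on the scaling. Without both libraries that stood apart 6 were higher and 14 lower, of 87 tested. In females on PLX3397 5 rose, 2 fell and 83 did not pass, 7.78% against 5.34% of all genes. The difference between the responses was called for 0 of the 90 in limma. Its unadjusted p was under 0.05 for 20 of the 90, and for 10.3% of all genes tested. Of the alternatives only the fit without male PLX3397 replicate 1 called any pathway gene. That was 1 gene, Sirpa, which encodes an inhibitory receptor (0.67, limma adjusted p = 0.0205) and was singled out after its value was seen. Females minus males on PLX3397 called 17 of the 90 (18.9%), 15 higher and 2 lower in females. Of all genes tested 5.43% were called there, 838 higher and 226 lower in females. The fit to those groups alone called 0 pathway genes, and quantile normalisation called 5.

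Among other receptors listed as possible partners of these adaptors, 11 were tested, and 4 rose and 1 fell in males, while 1 rose and 1 fell in females. Which adaptor each of them uses was not checked here. Beside this list and those below, 4.16% of all genes tested rose and 7.52% fell in males. In females 2.67% rose and 2.67% fell. Siglech, a lectin receptor that pairs with DAP12 and a marker of microglia, fell by 0.99 ± 0.0934 in males and by 0.68 ± 0.0934 in females (limma adjusted p = 3.31e-06 and 0.00029). Cd300ld, an activating receptor of myeloid cells, rose by 2.84 ± 0.617 in males and 2.39 ± 0.617 in females (limma adjusted p = 0.00561 and 0.0303), and the female call held under 21 of 27 alternatives. Pilrb1, a paired activating receptor, averaged 67.3 in males on PLX3397 and was listed at 0 in male controls. Trem3, a DAP12-paired relative of TREM2 in mice, averaged 66.2 in males on PLX3397 and 2.28 in male controls. Both are among the 4 that rose, but they passed the filter on low values only through libraries on PLX3397, for Trem3 only those of males, so their calls follow in part from the filter and are given with no test. Summed neutrophil markers, given above, were also higher in males on PLX3397, and their part in these low-level genes was not tested. Among 4 ligands and sheddases, Apoe, a lipoprotein that TREM2 binds, rose by 2.01 ± 0.276 in males and 1.79 ± 0.276 in females (limma adjusted p = 0.000129 and 0.000744). Apoe averaged 151270 in males on PLX3397 against 34745 in male controls, and 125589 in females on PLX3397 against 35199 in female controls. Adam10, which encodes a protease that cleaves TREM2 from the surface, fell in males by 0.94 ± 0.158 (limma adjusted p = 0.000743) and changed by -0.41 ± 0.158 in females (limma adjusted p = 0.173). Adam17, a second such protease, did not pass in either sex (limma adjusted p = 0.428 in males).

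Of 9 Src and Tec family kinases tested, 1 rose and 2 fell in males and none passed in females. Lyn, a Src family kinase of myeloid cells, fell in males by 0.52 ± 0.0783 (limma adjusted p = 0.000299). Fgr, a relative of Lyn, rose in males by 1.81 ± 0.553 (limma adjusted p = 0.0427), a call that held under 14 of 27 alternatives. Of 12 scaffolds and adaptors, Lcp2, which encodes the scaffold SLP-76, fell in males by 0.82 ± 0.123 (limma adjusted p = 0.000286) and the docking protein gene Gab2 rose by 0.58 ± 0.179 (limma adjusted p = 0.0469), a call that held under 12 alternatives. None of the 12 passed in females. Of 14 PI3-kinase and AKT genes 1 was called, Pik3ap1, an adaptor for PI3-kinase, which fell in males by 0.35 ± 0.086 (limma adjusted p = 0.0123). Its change was -0.13 at its smallest under the scalings, where the call ended.

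Of 16 genes on the output of phospholipase C gamma, 3 fell in males and none passed in females. Of all genes tested 7.52% fell in males and 5.34% were called in females. The 3 were Nfatc1 (-0.63 ± 0.108) and Nfatc2 (-0.67 ± 0.184), transcription factors that calcium signals activate, and Rasgrp3 (-0.49 ± 0.102), a Ras exchange factor that responds to diacylglycerol. Their limma adjusted p was 0.000906, 0.0247 and 0.00389, and equal library totals ended the calls of Nfatc2 and Rasgrp3.

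Of 14 phosphatases and inhibitory partners tested, 3 rose and 5 fell in males, and 3 rose and 1 fell in females. Lilrb4a, an inhibitory receptor that is also counted among disease-associated microglial genes, averaged 12048 in males on PLX3397 against 201.3 in male controls, and 9228 in females on PLX3397 against 301.2 in female controls. Its change was 5.89 ± 0.435 in males and 5.06 ± 0.435 in females (limma adjusted p = 3.41e-07 and 2.98e-06). Cd300a, an inhibitory receptor for phospholipids on dying cells, rose by 0.69 ± 0.12 in males and 0.80 ± 0.12 in females (limma adjusted p = 0.000989 and 0.000608). Dok3, an adaptor known to dampen signalling in myeloid and B cells, fell by 1.35 ± 0.148 in males and by 0.87 ± 0.148 in females (limma adjusted p = 1.5e-05 and 0.0017). These 3 genes were called in both sexes under all 27 alternatives.

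**Figure D5:**
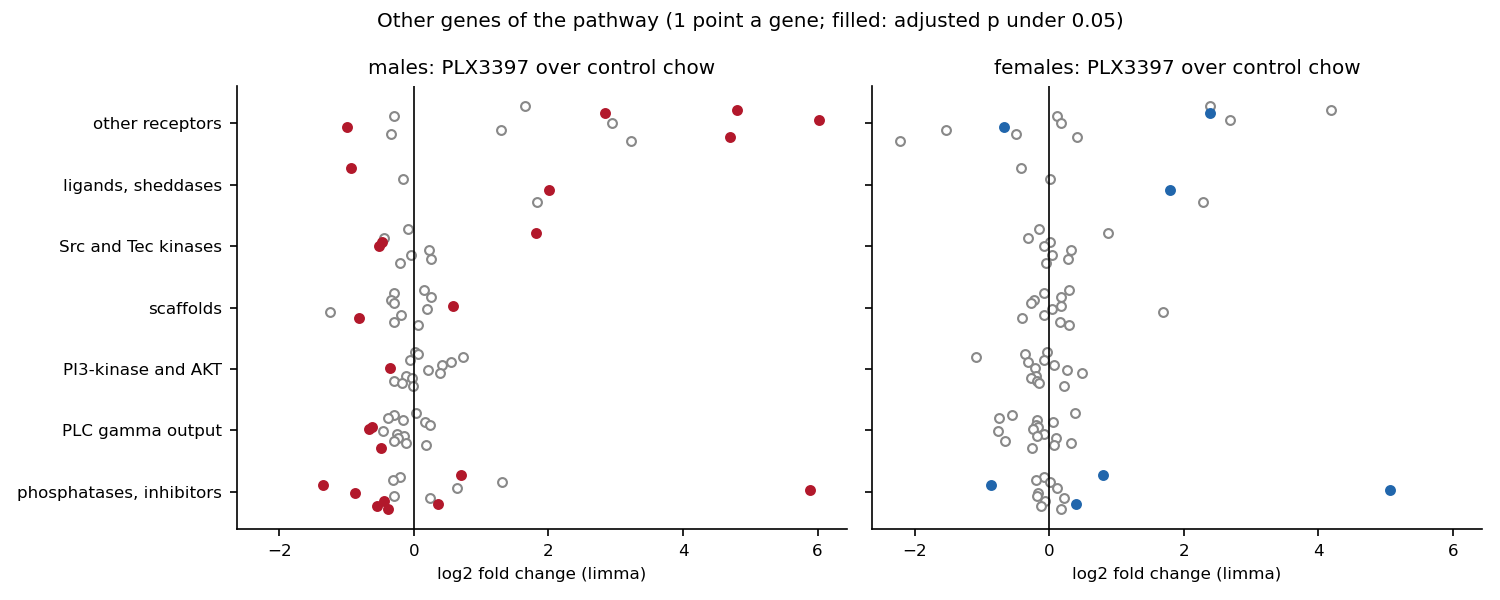
Log2 fold changes, PLX3397 over control chow, of 80 other pathway genes tested, in 7 lists, in males and in females; each point is 1 gene, and filled points have an adjusted p under 0.05. Of the points 24 are filled in males and 7 in females, and the 3 filled points for phospholipase C gamma output in males all lie below 0. The filled points in males include Trem3 and Pilrb1, which passed the filter on low values only through libraries on PLX3397.

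Disease-associated microglia are described in mouse brain as arising in stages, of which the second needs Trem2. Of 9 genes of the first stage, 8 rose in males and 9 in females, among them Lyz2, encoding lysozyme (2.45 ± 0.143 in males and 2.08 ± 0.143 in females), and the protease gene Ctsb (1.45 ± 0.129 and 1.55 ± 0.129). Of 20 genes of the second stage, 16 rose in males and 15 in females, and none fell in either sex. Clec7a, a lectin receptor that also signals through SYK, rose by 3.68 ± 0.236 in males and 3.80 ± 0.236 in females (limma adjusted p = 1.38e-07 and 2.2e-07). Cst7, a cystatin, rose by 3.44 ± 0.25 in males (limma adjusted p = 3.2e-07). Both stages were known to be higher when the lists were chosen, so their direction is a description here. The change of Trem2 itself was 0.12 ± 0.119 in males, which did not pass, and 0.42 ± 0.119 in females (limma adjusted p = 0.0482). Whether the level of Trem2 bears on these genes was not tested.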

How the data were processed

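The deposited values are a signal, by name and content a normalised read count: each library, and to a slight extent each gene, has its own divisor, whose formula is not given in the sources used here. Per the submitters' processing notes, the tools were Salmon 1.5.2, featureCounts 2.0.1, Subread, STAR 2.7.9a and bcl2fastq 2.19.1 and the build GRCm39, with no role stated. The filter required a value of 10 in 4 or more libraries. As the values are not whole counts, limma 3.58.1 (R 4.3.3) was fitted to log2(value + 1) of all 16 libraries, with an intensity trend and a mean per group, and gave two-sided tests. The procedure was also run on simulated log values, drawn as independent normal values with the same spread in each group. Outlying libraries were not simulated, and the outcome is not given here. Symbols matched 51029 of 53850 identifiers, and lengths came from GENCODE on GRCm38. Ratios between members were compared by exact permutation. All members, the 3 genes with the smallest p in each list and response, and the 5 nearest profiles could be named. Members and lists were chosen with earlier results of these data known. Results for some genes and 1 gene list are not reported here. Intervals for counting error were not computed. Figures used matplotlib 3.10.9.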

Additional observations from a re-analysis of the deposited data

Results flagged for a closer look

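Pik3cg in males on PLX3397 had 1 library far from the rest of its group: replicate 1 stood at 9456 normalised counts, against 5956 to 6128 in the other 3. Without it the male change of Pik3cg was -1.22, against -1.06 with it. The log2 ratio of Inpp5d to Syk in females on PLX3397 had a like gap, with replicate 3 at 2.39 and the others at 2.04 to 2.07. Without it the female difference in that ratio was -0.27, against -0.19 with it. The other 3 libraries all lay below the female controls, at 2.25 to 2.39, and 4 against 3 libraries cannot give an exact permutation p below 0.0571. Both met Dixon's test for a single distant value among 4 libraries. The test was applied to 44 groups of values, and chance gives about 1 such gap in 20 groups.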

How the results depend on the processing

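Alternatives were pseudocounts of 0.5 and 5, a filter of 50, no filter, 3 scalings, array weights, a fit to the compared groups alone, the replicate block, both libraries that stood apart left out, and each library left out. Counts of pathway genes under these were added after seeing the data. No called value changed sign. Without both libraries 1517 genes were called in males, the response difference had 2, and females minus males on PLX3397 had 339 genes and 6 pathway genes. The response difference had 1 with a pseudocount of 5. Females minus males on PLX3397 had 669 genes and 8 pathway genes with no filter, 671 and 9 with upper-quartile scaling, 569 and 9 with equal library totals, 467 and 5 with quantile normalisation, and 47 and 0 in the fit to those groups alone. Of the members, 1 was called there with equal totals and 1 with quantile normalisation. A filter of 50 gave 12 pathway genes in females, against 7. Leaving out 1 library at a time gave 2 to 6 members called in females, 0 to 6 genes in the response difference, 324 to 1232 genes, 0 to 2 members and 6 to 18 pathway genes in females minus males on PLX3397, and 11 to 20 genes on control chow. Replicate numbers were shared by the groups, and 1 of 24 same-numbered pairs of libraries had a correlation of deviations over 0.1. The labels do not say what a shared number means. A low correlation does not settle whether such libraries were prepared together. With the replicate block 2136 genes were called in males and 962 in females, 4 members in males and 3 in females (Trem2 at limma adjusted p = 0.0536). Low-level genes such as Hcst, with group means of 408 to 655 normalised counts, had the largest errors among the members.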
